A study of Ovis aries with 115 samples.

Results

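The 75 identifiers described here were the carriers, pumps and ion channels of the sheep cervix whose gene names begin with SLC, ABC, ATP, AQP, KCN, CLCN, SCN, CACN or TRP and that the supplementary lists of the study name, apart from SLC16A6, AQP9 and ATP8A2. They carried 72 gene symbols, because SLC11A2 named 3 identifiers and ATP2B4 named 2, and they were 75 of the 27054 identifiers in the count files. The names were chosen by measured values. In 74 of the 75 cases the name came from a list of genes higher in Suffolk than in Fur ewes at the synchronised follicular phase, and CACNG6 came from a list of Suffolk against Belclare ewes at the same phase. TRPM1 was also named in the list of NWS against Suffolk ewes at that phase. The synchronised follicular values of Suffolk and Fur ewes are therefore given as a description without a test, and the tests were made in ewes that the choice did not use.

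Mid-cervical tissue of multiparous ewes was taken after death and sequenced as messenger RNA. Ireland was the source of the Suffolk and Belclare ewes and Norway that of the Fur ewes and the Norwegian White Sheep (NWS). Breed cannot be told apart from country between the Irish and the Norwegian ewes. Ewes were in the follicular phase of a cycle synchronised with a progestagen sponge followed by equine chorionic gonadotrophin (10 Belclare, 8 Fur, 10 NWS and 11 Suffolk ewes), in the follicular phase of a natural cycle (10, 10, 10 and 8 ewes in the same order), or in the luteal phase of a synchronised cycle (10, 9, 8 and 10 ewes). The synchronised follicular ewes were 4 to 5 years old. Of the 115 libraries, 114 had labels that gave one group, and the remaining library, whose labels named both a natural follicular and a luteal state, entered no comparison.

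Carriers of the solute carrier families move ions, sugars, amino acids, nucleosides and organic ions across membranes, and ATP-driven pumps and ABC transporters move ions and lipids at the cost of ATP. Ion channels let ions pass down their gradients. In epithelia such as that lining the cervix, sodium, chloride, bicarbonate and water movement sets the volume, hydration and pH of the secreted mucus, which changes between the follicular and the luteal phase.

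Total counts ranged from 12238996 to 31261671 per library with a median of 17835128. Levels are given as CPM, read counts scaled to library size, after scaling by trimmed mean of M-values (TMM), and no level is compared between genes because gene lengths were not used. A log2 fold change (log2FC) is given with its standard error (SE), the first-named group over the second. A gene was called different at an edgeR quasi-likelihood adjusted p under 0.05 (Benjamini-Hochberg over 14811 genes) together with a fold change above 1.5. Of the 75 identifiers, 74 passed the filter, which asked for 1 CPM or more in no fewer than 10 of the 39 ewes of the synchronised follicular phase.

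Some libraries stood apart from the others of their group. NWS natural follicular replicates 4 and 10 had COX-1, a mitochondrial gene of the respiratory chain, at 38.2 and 33.3 CPM. All Fur ewes were between 25.7 and 49.1 CPM, and the ewes of the other breeds that did not stand apart were at or above 817 CPM. In 4 further libraries the median correlation of log2 CPM with the other ewes of the group was under 0.9, namely Belclare synchronised follicular replicate 2 (0.885), NWS synchronised follicular replicate 9 (0.886), NWS natural follicular replicate 5 (0.872) and Suffolk natural follicular replicate 4 (0.868). The other ewes were between 0.903 and 0.972. Tested comparisons between groups that used any of these 6 libraries are given with and without them.

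The summed levels of smooth muscle and epithelial genes also differed between Fur and Suffolk ewes. The summed level of 2 smooth muscle genes, ACTG2 and DES, had a median of 5068 CPM (1658 to 7727) in natural follicular Fur ewes and of 475 CPM (65.7 to 6082) in natural follicular Suffolk ewes. In luteal ewes it was 2387 CPM (582 to 9400) in Fur and 566 CPM (318 to 981) in Suffolk. ACTG2 was named in the lists of Suffolk against Fur and against NWS ewes and DES in the latter, while the epithelial genes and those of the other cell types given further on came from the list of genes higher in Suffolk than in Fur, so none of these lists is independent of the choice. The summed level of 14 epithelial genes, CDH1, CLDN3 and CLDN4 among them, went the other way, with medians of 2853 CPM in Fur and 4295 CPM in Suffolk natural follicular ewes and of 1987 and 3011 CPM in luteal ewes. No epithelial or smooth muscle gene was at 0 in all ewes of any group, and each had a group median above 1 CPM. In bulk tissue, fewer cells of a type and less RNA per cell cannot be told apart.

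In the synchronised follicular ewes that chose the names, the median log2FC of the 74 tested identifiers was -0.78 in Fur against Suffolk ewes, beside -0.02 over all 14811 genes. Of all genes, 7.30% were called higher and 5.97% lower in Fur ewes there. All 73 tested identifiers of the list were below 0, as the choice fixes. The members just inside the choice were the proton exchanger SLC9A8 and the mitochondrial carrier SLC25A42, each with a log2FC of -0.47, and the amino acid carrier SLC36A1 with -0.48. CACNG6, an auxiliary subunit of calcium channels, was the one identifier above 0 (log2FC 1.63) and lay outside that list, with 0.421 to 5.25 CPM in Fur and 0 to 2.57 CPM in Suffolk ewes. The same identifiers had a median log2FC of -0.80 in NWS and of -0.12 in Belclare against Suffolk ewes, comparisons that share the Suffolk ewes and in which 9.54% and 0.00675% of all genes were called higher and 9.19% and 0% lower.

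The first question for the independent ewes was whether the carriers and channels also differed between Fur and Suffolk ewes at the natural follicular and at the luteal state. At the natural follicular state 23 of 74 were called lower in Fur ewes and none higher, which was 31.1% of them. Over all 14811 genes 9.62% were called in this comparison, 5.08% lower and 4.54% higher. At the luteal state 15 were called lower and 1 higher, or 20.3% lower, where 13.8% of all genes were called, 7.40% lower and 6.44% higher. The median log2FC of the members was -0.58 and -0.45 at the 2 states, and over all genes it was -0.03 and -0.02. A log2FC below 0 was seen in 63 and 64 of the 74 identifiers, beside 53.2% and 52.3% of all genes. The other 1359 tested identifiers read from the same list gave 280 lower (20.6%) at the natural follicular and 423 lower (31.1%) at the luteal state, so that the members' share was above theirs in one state and below it in the other. Of these 1359, 83.8% and 90.7% had a log2FC below 0, beside 86.3% and 87.7% of the tested members of the list.

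**Figure D1:**
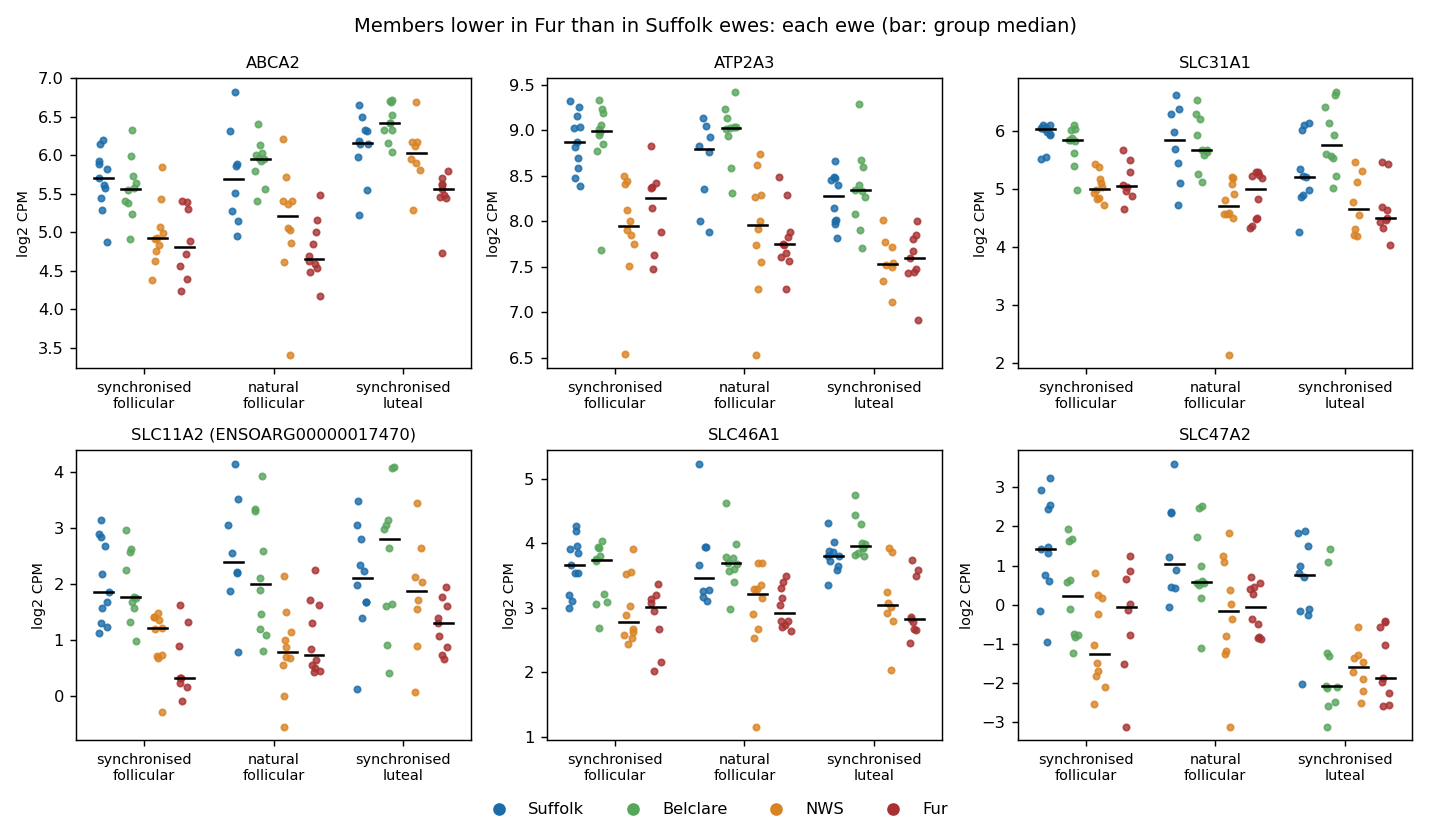
Level in each ewe as log2 CPM for ABCA2, ATP2A3, SLC31A1, the SLC11A2 identifier ENSOARG00000017470, SLC46A1 and SLC47A2, by state and breed, with bars at the group medians. Fur medians lie below Suffolk medians for each gene in natural follicular and luteal ewes, where single ewes of the 2 breeds overlap, and the synchronised follicular values are those that chose the names.

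The 2 independent states shared 10 identifiers called lower in Fur ewes, which was 43.5% of the natural follicular and 66.7% of the luteal calls, and 13.5% of those tested. Of all genes, 1.5% were called lower in both states. The 10 were ABCA2, ABCA3 and ATP11A among lipid transporters, SLC31A1 and 1 of the SLC11A2 identifiers among metal transporters, ATP2A3 and CACNG7 among calcium pumps and channels, SLC29A4 and SLC47A2 among carriers of organic ions, and SLC46A1 among nutrient carriers. No ewe is in both states. In every case at least 1 Fur ewe lay within the Suffolk range. With a tissue covariate, described further on, 5 of the 10 had a log2FC above 0 in one of the states. With smooth muscle genes these were SLC29A4 (0.16) in natural follicular ewes and SLC31A1 (0.29), ATP11A (0.04) and SLC46A1 (0.01) in luteal ewes, and with epithelial genes ABCA3 (0.09) in natural follicular ewes.

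Of the 5 lipid transporters, 3 were lower in natural follicular and 4 in luteal Fur ewes, with median log2FC of -0.76 and -0.77. ABCA2, a lipid transporter of endosomes and lysosomes, ranged in natural follicular ewes from 17.9 to 44.5 CPM (median 25.1) in Fur and from 30.9 to 114 CPM (median 51.9) in Suffolk. All 10 Fur ewes were below the Suffolk median (log2FC -1.07, SE 0.23, edgeR adjusted p = 0.00659). In luteal ewes ABCA2 was at 26.4 to 55.5 CPM (median 47.1) in Fur and at 37.2 to 100 CPM (median 71.7) in Suffolk, with log2FC -0.65 (SE 0.16, edgeR adjusted p = 0.00614). ABCA3, which loads lipid into lamellar bodies in the lung, had a median of 75.4 CPM (54.6 to 107) in Fur and 138 CPM (71.9 to 205) in Suffolk natural follicular ewes (log2FC -0.76, SE 0.20, edgeR adjusted p = 0.0168). Its luteal log2FC was -0.73 (SE 0.19, edgeR adjusted p = 0.00834). The phospholipid flippase ATP11A fell by 0.69 (SE 0.19) and 0.78 (SE 0.20) on the log2 scale. ABCA1, which exports cholesterol, was called at the luteal state alone (log2FC -0.77, SE 0.24), and its natural follicular value was -0.12. The cholesterol exporter ABCG1 had log2FC of -0.89 and -0.78 and passed in neither state.

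Among metal transporters, 4 of 8 identifiers were lower in natural follicular and 2 of 8 in luteal Fur ewes (median log2FC -0.80 and -0.50). SLC31A1, the copper importer of the cell membrane, ranged from 20 to 38.9 CPM (median 32.2) in Fur and from 26.3 to 97.7 CPM (median 57.4) in Suffolk natural follicular ewes (log2FC -1.0, SE 0.23, edgeR adjusted p = 0.00881). All 10 Fur ewes were below the Suffolk median. In luteal ewes 7 of 9 Fur ewes were below it, with medians of 22.6 and 36.9 CPM (log2FC -0.69, SE 0.25, edgeR adjusted p = 0.0402). Its neighbour SLC31A2 had log2FC of 0.04 and -0.03. ATP13A2, a lysosomal pump that exports polyamines, was lower by 0.59 (SE 0.10) in natural follicular Fur ewes. Its luteal log2FC of -0.47 had an adjusted p of 0.00898 by edgeR but a fold change under 1.5.

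SLC11A2 is the proton-coupled importer of ferrous iron, and its 3 identifiers were counted separately. ENSOARG00000017470 had a median of 1.56 CPM (1.23 to 4.64) in Fur and 5.16 CPM (1.6 to 17.7) in Suffolk natural follicular ewes (log2FC -1.76, SE 0.39, edgeR adjusted p = 0.00739), and it was lower again in luteal ewes (log2FC -1.06, SE 0.33, edgeR adjusted p = 0.0226). ENSOARG00000017439 was lower in natural follicular Fur ewes, at 34.1 to 93.9 CPM against 44.9 to 367 CPM (log2FC -1.53, SE 0.37, edgeR adjusted p = 0.0103). Its luteal log2FC of -0.79 did not pass, and there the Fur median of 67.0 CPM was above the Suffolk median of 54.5 CPM, while the Suffolk range reached 410 CPM and the Fur range 120 CPM. ENSOARG00000017456 passed in neither state (log2FC -1.60 and -0.47) and spread most widely, from 45.1 to 1480 CPM within luteal Suffolk ewes. Identifiers that share a name may divide the reads of one gene between them, and their values as separate genes are uncertain. Across all 114 ewes, after subtracting group means, ENSOARG00000017439 and ENSOARG00000017456 had a Pearson r of 0.831 (Spearman rho 0.840), ENSOARG00000017439 and ENSOARG00000017470 one of 0.694 (rho 0.670), and ENSOARG00000017456 and ENSOARG00000017470 one of 0.678 (rho 0.687). Each had a permutation p of 1e-05, the smallest that 100000 shuffles within groups can give, and an adjusted p of 2e-05 over the 10 pairs computed. Without the 2 ewes farthest from the median the r values were 0.815, 0.663 and 0.685.

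Carriers of organic ions showed the largest single differences. Of 8 identifiers, 5 were lower in natural follicular and 2 in luteal Fur ewes. SLC47A2, a proton antiporter of organic cations, was at 0.430 to 1.51 CPM (median 0.868) in Fur and 0.844 to 12.1 CPM (median 1.97) in Suffolk natural follicular ewes, with log2FC -2.03 (SE 0.47, edgeR adjusted p = 0.00894). In luteal ewes it was at 0.0509 to 0.627 CPM (median 0.157) in Fur and 0.131 to 3.59 CPM (median 1.57) in Suffolk, with log2FC -2.53 (SE 0.56, edgeR adjusted p = 0.00287). These are a few reads per library, and all Fur ewes of both states were below the Suffolk median. SLC29A4, a monoamine carrier, was lower in both states (log2FC -1.61, SE 0.52, and -1.58, SE 0.51). SLCO2A1, the prostaglandin transporter, was lower in natural follicular Fur ewes, with medians of 38.7 and 70.4 CPM (log2FC -0.80, SE 0.26, edgeR adjusted p = 0.0378), and its luteal log2FC of -0.81 did not pass. SLCO1A2 and SLC22A16 were called at the natural follicular state alone (log2FC -2.26 and -1.30).

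**Figure D2:**
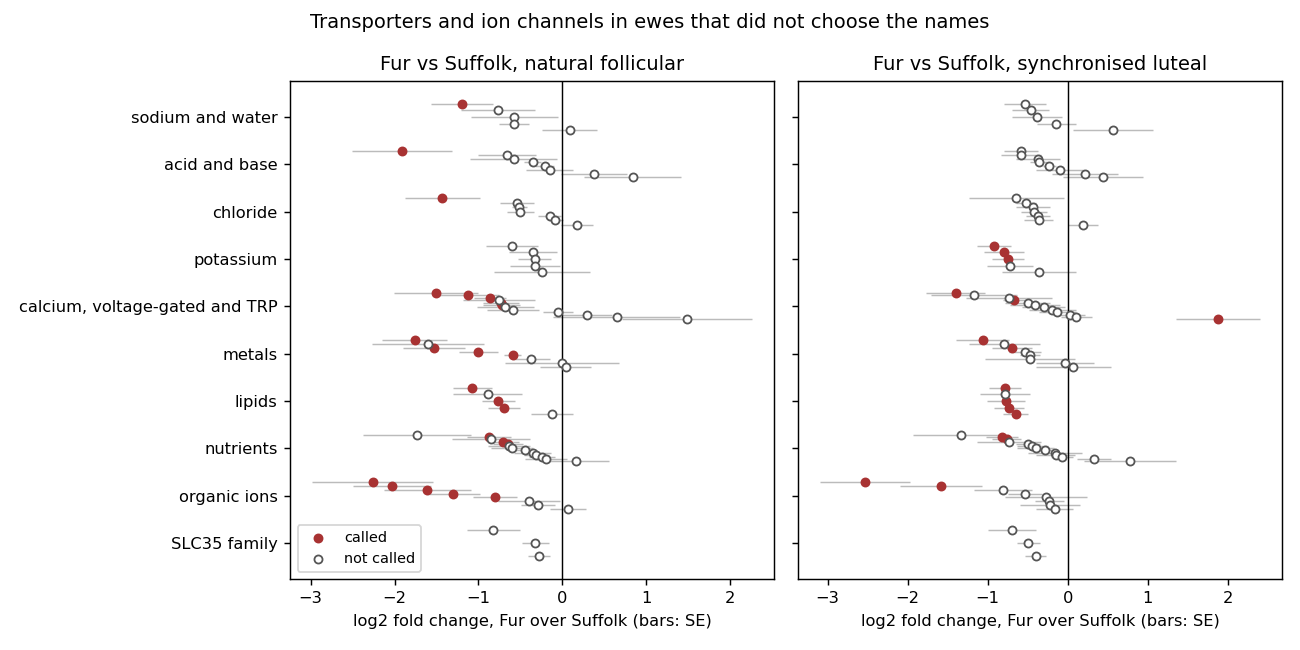
Log2 fold change of Fur over Suffolk ewes with SE bars for the 74 tested identifiers, by role, in natural follicular (left) and luteal (right) ewes. Filled points are called and open points are not, 63 and 64 of 74 points lie left of 0, and CACNG6 is the called point to the right in luteal ewes.

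Among nutrient carriers, 3 of 13 tested identifiers were lower in natural follicular and 2 of 13 in luteal Fur ewes. SLC46A1, the proton-coupled folate carrier, ranged from 6.13 to 11.2 CPM (median 7.51) in Fur and from 8.48 to 37.6 CPM (median 11.1) in Suffolk natural follicular ewes (log2FC -0.87, SE 0.26, edgeR adjusted p = 0.0260). In luteal ewes it was at 5.36 to 13.3 CPM (median 6.98) against 10.2 to 19.8 CPM (median 13.8), with log2FC -0.76 (SE 0.18, edgeR adjusted p = 0.00404). SLC16A5, a member of the monocarboxylate carrier family, was lower in luteal ewes (log2FC -0.82, SE 0.20, edgeR adjusted p = 0.00600) and had a natural follicular log2FC of -0.63 that did not pass. The nucleoside carrier SLC28A3 and the phosphate carrier SLC34A2 were lower in natural follicular Fur ewes (log2FC -0.70 and -0.65).

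Calcium pumps and calcium, sodium and TRP channels gave 5 lower of 12 identifiers in natural follicular Fur ewes, and 2 lower and 1 higher in luteal ones. ATP2A3, a calcium pump of the endoplasmic reticulum, was at 152 to 357 CPM (median 214) in Fur and 236 to 561 CPM (median 444) in Suffolk natural follicular ewes (log2FC -0.86, SE 0.19, edgeR adjusted p = 0.00670). In luteal ewes it was at 120 to 257 CPM (median 193) and 225 to 405 CPM (median 310), with log2FC -0.67 (SE 0.14, edgeR adjusted p = 0.00162). All Fur ewes of both states were below the Suffolk median. CACNG7, an auxiliary calcium channel subunit, had log2FC of -1.12 (SE 0.37) and -1.40 (SE 0.37) at medians of 0.741 to 2.91 CPM. CACNG6 was the one member called higher in Fur ewes, in luteal ewes, at 0.102 to 3.86 CPM (median 1.26) against 0.116 to 1.1 CPM (median 0.281), with log2FC 1.88 (SE 0.53, edgeR adjusted p = 0.0131). Of 9 Fur ewes, 7 were above the Suffolk median.

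ATP2B4, which pumps calcium out through the cell membrane, named 2 identifiers, which are uncertain in the same way. ENSOARG00000016118 had medians of 40.5 CPM in Fur and 65.4 CPM in Suffolk natural follicular ewes (log2FC -0.73, SE 0.21, edgeR adjusted p = 0.0245), and ENSOARG00000002982 had 6.07 and 9.90 CPM (log2FC -0.72, SE 0.22, edgeR adjusted p = 0.0274). In luteal ewes neither passed (log2FC 0.11 and 0.03). The pair had a Pearson r of 0.927 and a Spearman rho of 0.888 over 114 ewes (permutation p = 1e-05 for each, the smallest possible, adjusted p = 2e-05), and r was 0.909 without the 2 ewes farthest from the median.

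The lists for sodium and water, acid and base, chloride and potassium bear on the fluid of the cervical canal. For sodium and water, 1 of 5 was lower at the natural follicular state, SCNN1D, the delta subunit of the epithelial sodium channel, at 0.224 to 1.25 CPM in Fur and 0.545 to 3.25 CPM in Suffolk ewes (log2FC -1.20, SE 0.37, edgeR adjusted p = 0.0295). Its luteal log2FC was 0.57 (SE 0.50) and did not pass. SCNN1A, the alpha subunit, had log2FC of -0.77 (SE 0.44) and -0.53 (SE 0.26), neither called. For acid and base, 1 of 8 was lower at the natural follicular state and none at the luteal one, where 3 members had an edgeR adjusted p under 0.05 with a fold change under 1.5, namely the proton pump subunits ATP6AP1 (log2FC -0.23) and ATP6V0A4 (-0.58), and SLC9A8 (-0.36). The call was ATP6V0D2, a subunit of the vacuolar proton pump, with a median of 1.07 CPM in Fur and 2.23 CPM in Suffolk natural follicular ewes and a Suffolk range of 0.0929 to 19.3 CPM.

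For chloride, 1 of 7 was lower at the natural follicular state and none at the luteal one. CLCN3, a chloride and proton exchanger of endosomes, had the smallest edgeR adjusted p of the list at 0.00303, yet its log2FC of -0.51 was under the fold limit. Its range was 78.2 to 107 CPM in Fur and 98.4 to 153 CPM in Suffolk ewes. For potassium, none of 5 was called at the natural follicular state and 3 were lower at the luteal one. These were the inward rectifier KCNJ2, at medians of 2.14 CPM in Fur and 4.30 CPM in Suffolk (log2FC -0.92, SE 0.21, edgeR adjusted p = 0.00396), and the potassium leak channels KCNK5 and KCNK6 (log2FC -0.79 and -0.74). Fur luteal replicate 8 was far below the other Fur ewes in KCNK5 (11.1 against 25.3 to 44.7 CPM) and KCNK6 (1.49 against 3.53 to 6.24 CPM). No fit left that ewe out. Of the 3 SLC35 members, whose family carries nucleotide sugars, none was called in either state, and SLC35E4 had log2FC of -0.82 and -0.70.

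No member showed a called change of the breed difference between the 2 states. In the edgeR interaction of breed with state, 0 of 74 identifiers passed at an adjusted p under 0.05 and 9 had an unadjusted p under 0.05, where 1.45% of all genes were called. DESeq2 also called 0, and edgeR called 0 without Suffolk natural follicular replicate 4 (2.38% of all genes). A call at one state and not at the other is therefore not a shown difference between states.

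Leaving out Suffolk natural follicular replicate 4 left the count at 23 but exchanged members of it. The share of all genes called in that fit is not given here, so this count cannot be set beside it. SLC29A4, CACNG7, SLC46A1, ATP13A2 and SLCO1A2 were among those no longer called (log2FC -0.91, -1.09, -0.50, -0.57 and -1.19 without that ewe). SCNN1A, SLC35E4, ABCG1, TRPM6 and SLC13A2 were among those newly called (log2FC -0.96, -0.96, -1.07, -0.85 and -0.73). In that ewe SCNN1A was at 2.00 CPM, where the other 7 Suffolk ewes were at 95.2 to 203 CPM. Of the 10 identifiers lower in both states, 3 (CACNG7, SLC29A4 and SLC46A1) were therefore not called in natural follicular ewes without that ewe. The log2FC of SLC29A4 and SLC46A1 became smaller in size without it, while that of CACNG7 stayed nearly the same.

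Both tissue lists moved with these differences. At the natural follicular state 8 of the 14 epithelial genes were called lower in Fur ewes, with a median log2FC of -0.65, and at the luteal state 5, with -0.47. ACTG2 and DES were called higher at the luteal state, with a median log2FC of 2.44, and had 1.73 without a call at the natural follicular one. With ACTG2 and DES entered as a covariate (their mean on the log2 CPM scale), 1 member was called in natural follicular ewes (ATP6V0D2, log2FC -2.86) and 3 lower and 4 higher in luteal ewes, where the shares over all genes were 0.250% and 12.1%. With the mean of the 14 epithelial genes, 0 members were called in natural follicular ewes, and 5 lower and 1 higher in luteal ewes, with 0.0675% and 9.30% over all genes. The 5 were CACNG7, ABCA1, SLC16A5, SLC47A2 and the potassium channel subunit KCNMB4, and SLC47A2 kept a log2FC of -2.24 (edgeR adjusted p = 0.0340). Their part in the breed difference was not tested beyond these fits, and muscle, epithelium and breed moved together in these ewes.

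**Figure D3:**
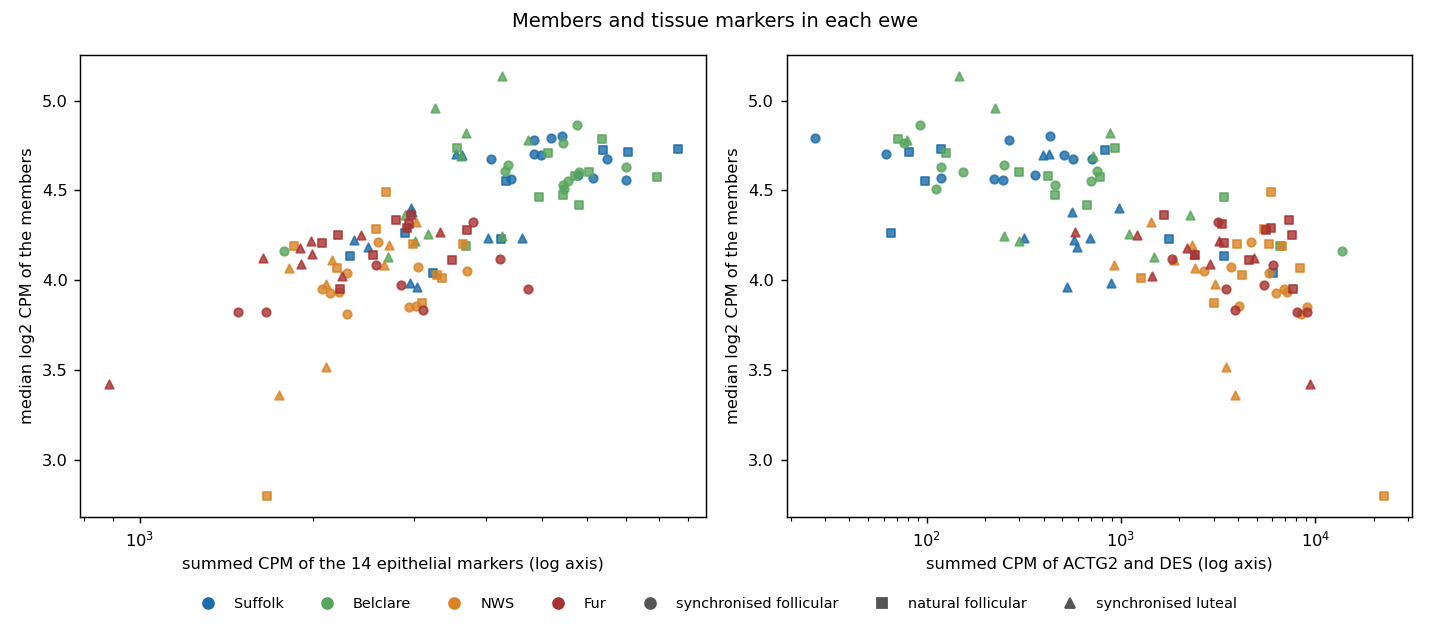
Median log2 CPM of the 74 tested members in each ewe against the summed CPM of 14 epithelial genes (left) and of ACTG2 and DES (right), both on log axes, with breeds by colour and states by shape. Group medians of the members run from 3.94 in NWS to 4.67 in Suffolk synchronised follicular ewes, and the lowest single ewe, at 2.80, is a natural follicular NWS ewe.

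Other cell types were measured too. At the natural follicular state 0 of 7 leukocyte, 0 of 3 endothelial, 0 of 3 keratinocyte and 0 of 3 osteoclast and macrophage genes were called between Fur and Suffolk ewes. At the luteal state 5 leukocyte, 2 endothelial and 2 keratinocyte genes were lower in Fur ewes, and none of the osteoclast and macrophage genes. The summed leukocyte level in luteal ewes was 24.3 to 96.7 CPM in Fur and 86.0 to 159 CPM in Suffolk. No gene of these lists was at 0 in all ewes of any group, and their part in the members' differences was not tested.

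Carriers and channels named on the same lists without the chosen prefixes gave 6 lower and 1 higher of 35 tested at the natural follicular state, and 10 lower at the luteal one. Over all genes 5.08% and 7.40% were called lower at the 2 states, and 4.54% and 6.44% higher. The identifiers outside the members on the list of genes higher in Suffolk than in Fur, these carriers included, gave 20.6% and 31.1% lower. Those with the smallest of the larger p over both states were PIEZO1, a mechanically gated cation channel (log2FC -1.0 and -0.65), TMEM30B, a partner of phospholipid flippases (log2FC -0.70 and -0.71), and FLVCR2 (log2FC -0.81 and -1.14).

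The second question was whether the other Norwegian and Irish breeds differed in the same way. NWS against Suffolk ewes gave 4 lower at the natural follicular state (0.993% of all genes called, 0.459% lower) and 3 lower at the luteal state (4.35%, of which 1.45% lower and 2.90% higher), none higher in either, with median log2FC of -0.58 and -0.35. Among the 4 were CLCN3 (log2FC -0.59, SE 0.13) and the SLC11A2 identifiers ENSOARG00000017439 (-2.09, SE 0.42) and ENSOARG00000017470 (-1.96, SE 0.41), with edgeR adjusted p between 0.0381 and 0.0432. Without the 4 libraries that stood apart in these groups, 0 members were called and the median log2FC was -0.45. The share of all genes called was then 0.00675%. In luteal ewes SLC47A2 was at 0.0597 to 0.561 CPM in NWS and 0.131 to 3.59 CPM in Suffolk (log2FC -2.81, SE 0.53, edgeR adjusted p = 0.00405). ATP2A3 fell by 0.67 (SE 0.13) and ABCA3 by 0.71 (SE 0.14) on the log2 scale there, and all 8 NWS ewes were below the Suffolk median for each of the 3. Fur and NWS are both set against the same Suffolk ewes here. Of the 74 identifiers, 64 and 68 had a log2FC below 0, beside 49.3% and 49.5% of all genes. Among the other 1359 tested identifiers of the list of genes higher in Suffolk than in Fur, 83.4% and 91.2% were below 0. Of those 1359, 2.65% and 8.24% were called lower, beside 5.41% and 4.05% of the members. The NWS interaction of breed with state called 0 members by edgeR and by DESeq2, with 7 at an unadjusted p under 0.05 (smallest in SLC11A2 ENSOARG00000017470, edgeR adjusted p = 0.594). Without the libraries that stood apart edgeR again called 0 members in that interaction, where 0.0135% of all genes were called.

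Few members were called by edgeR between the Irish breeds. Belclare against natural follicular Suffolk ewes gave 0 called members by edgeR and by DESeq2, with 6 at an unadjusted p under 0.05, and edgeR called 0% of all genes. Without Suffolk natural follicular replicate 4 the edgeR count was again 0. In luteal ewes 2 were lower and 1 higher in Belclare (2.43% of all genes called, 1.69% lower and 0.736% higher), while DESeq2 called 12 and 29 of 74 had an unadjusted p under 0.05. The share of all genes that DESeq2 called there is not given here. The calcium channel CACNA1A was at 9.0 to 24.9 CPM in Belclare and 21.9 to 50.6 CPM in Suffolk (log2FC -0.77, SE 0.16, edgeR adjusted p = 0.0244). SLC16A5 fell by 0.73 (SE 0.19) on the log2 scale. SLC28A3 was higher, at 137 to 430 against 102 to 179 CPM (log2FC 0.72, SE 0.17, edgeR adjusted p = 0.0353). The median log2FC over the members was 0.11 and 0.17 in the 2 states.

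NWS against Belclare ewes, neither of which chose the names of the members counted here, were compared in all 3 states. At the synchronised follicular phase 32 of 72 identifiers were lower in NWS and none higher, or 44.4%, where 16.3% of all genes were called, 8.52% lower and 7.76% higher. CACNG6 and TRPM1 were left without a test, since Belclare or NWS ewes of that phase had chosen them. At the natural follicular state 30 of 74 were lower and none higher (13.0% of all genes called, 4.70% lower and 8.26% higher), and at the luteal state 21 were lower and 2 higher (11.6% called, 4.59% lower and 7.05% higher). The other tested identifiers of the list of genes higher in Suffolk than in Fur gave 40.3%, 24.0% and 21.4% lower in the 3 states. Median log2FC of the members was -0.63, -0.68 and -0.50.

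At the synchronised follicular phase the calls in NWS against Belclare covered 6 of 8 acid and base, 6 of 8 metal, 4 of 7 chloride, 3 of 5 sodium and water, 3 of 5 lipid, 5 of 13 nutrient and 3 of 10 calcium identifiers, and 1 each of the organic ion and potassium lists. Among those of smallest p were 2 chloride and proton exchangers. CLCN4 was at 8.65 to 15.4 CPM (median 10.3) in NWS and 10.3 to 34.4 CPM (median 26.5) in Belclare ewes, with log2FC -1.20 (SE 0.17, edgeR adjusted p = 4.93e-05). CLCN3 was at 68.7 to 103 CPM (median 78.0) and 60.5 to 188 CPM (median 146), with log2FC -0.83 (SE 0.14, edgeR adjusted p = 2.13e-04). All 10 NWS ewes were below the Belclare median for each, and the ranges overlapped.

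The 3 states share no ewe, and 11 identifiers were lower in NWS than in Belclare in all 3, where 1.32% of all genes were. Among them were SCNN1A, CLCN3, CLCN4, ATP2A3, TRPM6, SLC31A1, SLC11A2 (ENSOARG00000017439), SLC13A2, SLC28A3 and SLC44A3, and they were named after their values were seen. SCNN1A had log2FC of -1.13, -1.23 and -1.01 in the synchronised follicular, natural follicular and luteal states, and its natural follicular ranges of 22.4 to 104 CPM in NWS and 126 to 225 CPM in Belclare did not overlap.

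The libraries that stood apart and the tissue lists bear on these counts as well. Without those libraries 42 members were lower at the synchronised follicular phase and 23 at the natural follicular state, where 22.6% and 8.52% of all genes were called, and the 11 identifiers above were among the 42. All 14 epithelial genes were called lower in NWS at the synchronised follicular phase (median log2FC -0.80), 11 at the natural follicular and 6 at the luteal state. ACTG2 and DES had a median log2FC of 1.86 without a call at the synchronised follicular phase, and of 2.30 and 1.65 with both called at the other states. Their summed level at the synchronised follicular phase had medians of 6026 CPM in NWS and 202 CPM in Belclare ewes. Belclare replicate 2, which stood apart, was at 13821 CPM there, and the next highest Belclare ewe was at 751 CPM. With the smooth muscle covariate 1, 0 and 0 members were called in the 3 states, with 1.28%, 0% and 0.365% of all genes. With the epithelial covariate it was 3, 0 and 0, with 3.17%, 0% and 0.398%. CLCN7 and SLC4A11 were among the 3, and their part in the difference was not tested further.

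**Figure D4:**
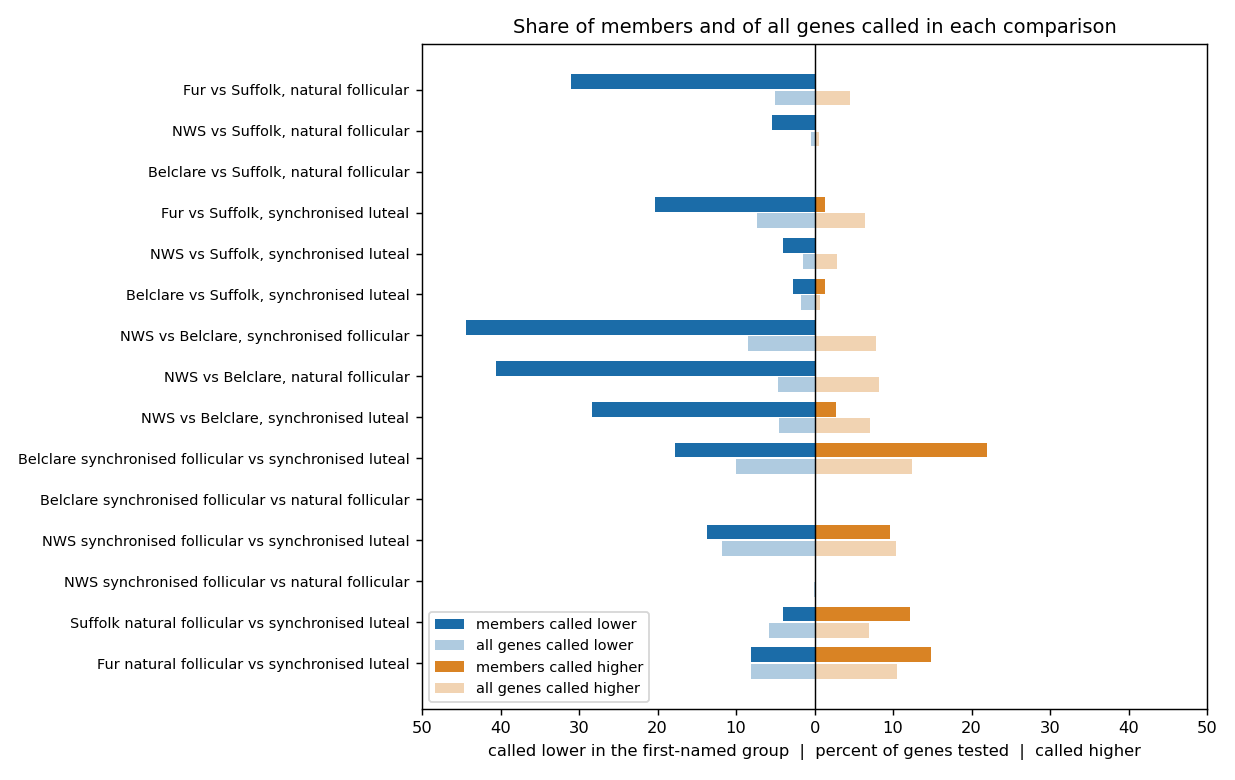
Percent of tested members (dark bars) and of all genes (light bars) called lower, to the left of 0, or higher, to the right, in the first-named group of each of 15 comparisons. Members were called lower more often than all genes in Fur or NWS against Suffolk and in NWS against Belclare ewes. Both directions were called between follicular and luteal ewes. The other identifiers of the list that gave the names are not drawn. In natural follicular and luteal Fur against Suffolk ewes 20.6% and 31.1% of them were called lower, beside 31.5% and 20.5% of the members of the list.

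The third question was how the members differed between the follicular and the luteal phase. Belclare and NWS ewes were compared between synchronised follicular and luteal ewes, and Suffolk and Fur ewes between natural follicular and luteal ewes, so that no ewe is in more than one of these 4 comparisons. Calls went in both directions. In Belclare ewes 16 of 73 were higher in the follicular phase and 13 lower (22.4% of all genes called, 12.4% higher and 9.97% lower). In NWS ewes 7 were higher and 10 lower of 73 (22.1% called, 10.3% higher and 11.7% lower). In Suffolk ewes 9 were higher and 3 lower of 74 (12.7% called, 6.91% higher and 5.84% lower), and in Fur ewes 11 higher and 6 lower of 74 (18.5% called, 10.5% higher and 8.05% lower). The members' median log2FC was between -0.09 and 0.20. Without the libraries that stood apart, 30, 22 and 12 members were called in Belclare, NWS and Suffolk ewes, with 22.1%, 22% and 14.6% of all genes. The share of members called was near that of all genes in these comparisons, except in Belclare ewes, where 29 of 73 were called. There 21.9% of the members were called higher and 17.8% lower. The other tested identifiers of the list of genes higher in Suffolk than in Fur gave 23.2% and 11.3%. In Suffolk and Fur ewes the cycle type and the phase differ together.

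A pair of identifiers was higher in the follicular phase in all 4 breeds, which is near the 2.96% of all genes that were. They were ABCG1 and ATP7B, which were named after this count was seen. TRPM6, SLC13A2, SLC43A2, KCNK6, ATP12A and SCNN1D were higher in 3 of the 4. With the pair, 8 members were higher in at least 3 breeds, where 6.62% of all genes were. ABCG1 was at 458 to 2019 CPM (median 947) in synchronised follicular and 156 to 315 CPM (median 227) in luteal Belclare ewes, and these groups did not overlap (log2FC 2.23, SE 0.25, edgeR adjusted p = 2.62e-06). In NWS ewes its medians were 603 and 134 CPM (log2FC 1.59, SE 0.39, edgeR adjusted p = 0.00403). In Suffolk and Fur ewes its log2FC was 1.39 (SE 0.43) and 1.31 (SE 0.29). ATP7B, a copper pump of the secretory pathway, had log2FC of 0.77 in Belclare, 0.81 in NWS, 0.85 in Suffolk and 1.04 in Fur ewes. In Fur ewes its ranges of 4.60 to 10.3 CPM in natural follicular and 2.37 to 4.01 CPM in luteal ewes did not overlap (SE 0.15, edgeR adjusted p = 2.85e-05).

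**Figure D5:**
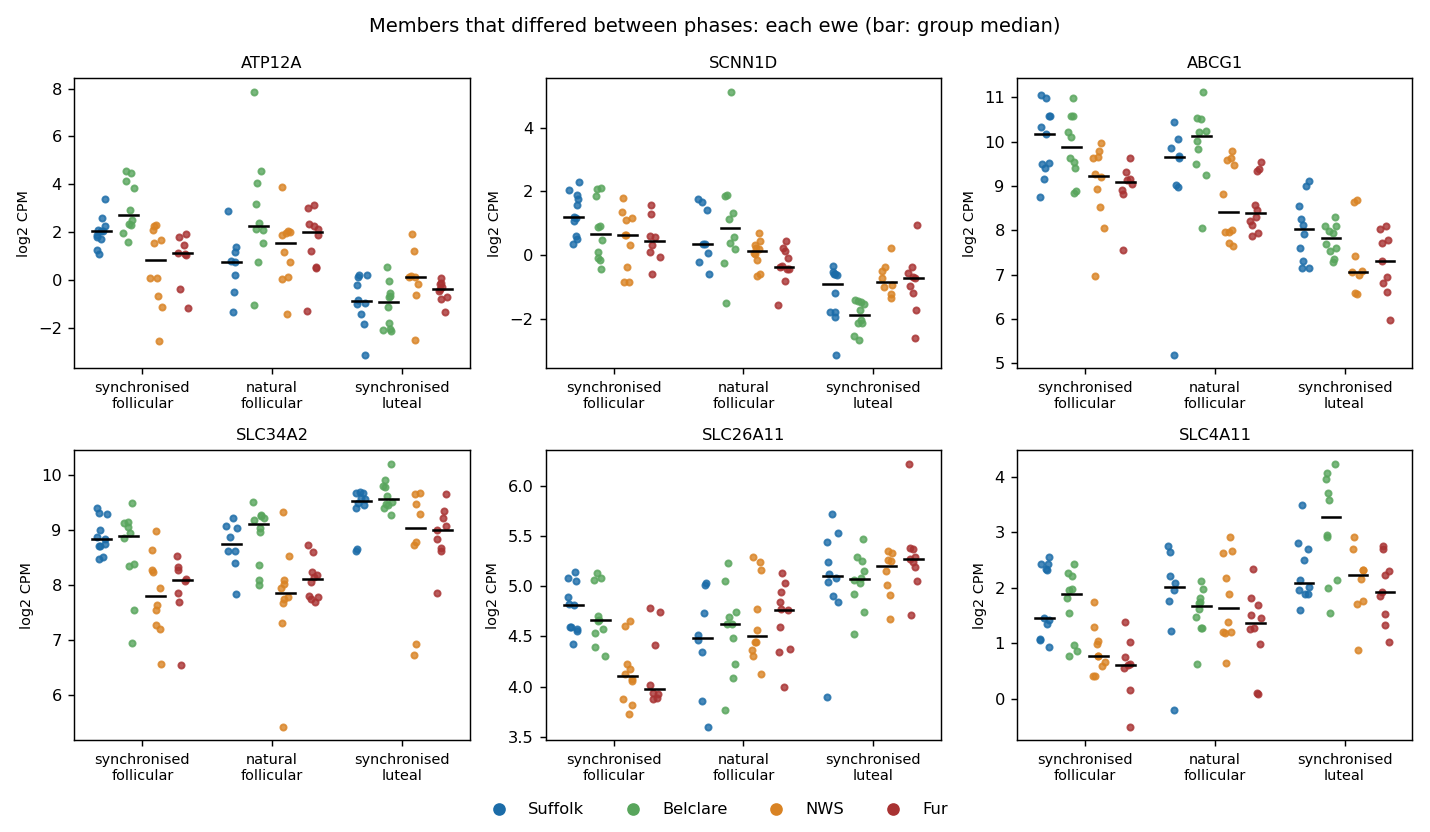
Level in each ewe as log2 CPM for ATP12A, SCNN1D, ABCG1, SLC34A2, SLC26A11 and SLC4A11, by state and breed, with bars at the group medians. ABCG1 medians lie lower and SLC34A2 medians higher in luteal ewes of every breed, and ATP12A and SCNN1D separate the phases most in Belclare ewes.

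The widest difference between phases was that of ATP12A, a proton and potassium pump. It was at 2.91 to 23.7 CPM (median 6.53) in synchronised follicular and 0.118 to 1.35 CPM (median 0.427) in luteal Belclare ewes, without overlap (log2FC 4.50, SE 0.53, edgeR adjusted p = 3.32e-06). In Fur ewes its medians were 3.94 and 0.653 CPM (log2FC 2.6, SE 0.45, edgeR adjusted p = 2.26e-04), and in Suffolk ewes 1.59 and 0.426 CPM (log2FC 1.95, SE 0.58, edgeR adjusted p = 0.0235). In NWS ewes its log2FC of 0.76 (SE 0.65) did not pass, and the difference between breeds was not tested. ATP6V1B1, a vacuolar proton pump subunit of acid-secreting cells, was at 342 to 1349 CPM in natural follicular and 79.4 to 448 CPM in luteal Fur ewes (log2FC 1.4, SE 0.28, edgeR adjusted p = 6.47e-04) and was also higher in follicular Belclare ewes (log2FC 1.24).

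The alpha and delta subunits of the epithelial sodium channel went in opposite directions in Belclare and NWS ewes. SCNN1D was higher in the follicular phase in Belclare (log2FC 3.54, SE 0.43), NWS (1.53, SE 0.40) and Suffolk ewes (2.16, SE 0.48), at medians of 1.16 to 1.5 CPM in follicular and 0.160 to 0.448 CPM in luteal ewes, which is a low level. All 10 follicular Belclare ewes, at 0.617 to 4.14 CPM, were above the luteal range of 0.0460 to 0.265 CPM. In Fur ewes its log2FC was 0.41 and did not pass. SCNN1A was lower in the follicular phase in Belclare (-0.82, SE 0.29), NWS (-0.97, SE 0.38) and Fur ewes (-0.76, SE 0.24), and its Suffolk value of -0.55 did not pass. The beta subunit SCNN1B was lower in follicular NWS ewes (-0.90, SE 0.33), and its values of -0.05 in Belclare, -0.44 in Suffolk and 0.05 in Fur ewes did not pass.

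SLC34A2, a sodium-dependent phosphate carrier of epithelia, was the one identifier lower in the follicular phase in all 4 breeds, where 1.78% of all genes were. That count is near the share over all genes. In Suffolk ewes SLC34A2 was at 230 to 598 CPM (median 430) in natural follicular and 392 to 830 CPM (median 742) in luteal ewes (log2FC -0.67, SE 0.19, edgeR adjusted p = 0.0200). All 8 follicular ewes were below the luteal median. In Fur, Belclare and NWS ewes its log2FC was -0.84, -0.90 and -1.01. ABCA2 was lower in follicular Belclare (-0.82, SE 0.14), NWS (-1.04, SE 0.19) and Fur ewes (-0.70, SE 0.15), with a Suffolk value of -0.31. SLC26A11, a transporter of sulphate and other anions, was at 13.2 to 25.1 CPM in follicular and 25.4 to 40.7 CPM in luteal NWS ewes without overlap (log2FC -0.99, SE 0.13, edgeR adjusted p = 5.97e-05), and it was lower by 0.64 (SE 0.22) in Suffolk and by 0.63 (SE 0.17) in Fur ewes.

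The other members named by smallest p in a breed were as follows. In Belclare ewes SLC16A5 was at 12.6 to 19.2 CPM in follicular and 5.66 to 10.6 CPM in luteal ewes without overlap (log2FC 1.01, SE 0.11, edgeR adjusted p = 2.26e-06). SLCO1A2, a carrier of organic anions, was lower, at medians of 4.44 and 42.4 CPM (log2FC -2.92, SE 0.51, edgeR adjusted p = 1.60e-04). In NWS ewes KCNK6 was higher, at medians of 12 and 5.91 CPM (log2FC 0.79, SE 0.14), and SLC4A11, of the bicarbonate transporter family, was lower, at 1.6 and 4.61 CPM (log2FC -1.35, SE 0.25). In Suffolk ewes the dicarboxylate carrier SLC13A2 (log2FC 1.44, SE 0.39) and the amino acid carrier SLC43A2 (0.74, SE 0.19) were higher and KCNJ2 was lower (-0.88, SE 0.24).

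The smooth muscle genes moved with phase too in NWS ewes, where both were higher in the follicular phase (median log2FC 1.42). With them as a covariate 1 member was called there in place of 17, SLC26A11 (log2FC -0.79), with 3.73% of all genes. In Belclare, Suffolk and Fur ewes the counts with that covariate were 30, 13 and 19, with 23.8%, 13.3% and 19.2% of all genes. With the epithelial covariate they were 30, 6 and 22, with 24.2%, 10.8% and 20%, and in NWS ewes 12, with 20.7%. In Belclare ewes the median log2FC of ACTG2 and DES was 1.23 without a call. Their summed level, however, had a median of 202 CPM in synchronised follicular and 509 CPM in luteal Belclare ewes. Synchronised follicular replicate 2, which stood apart, was at 13821 CPM. Among the epithelial genes, 2 were higher and 1 lower in follicular Belclare ewes, and 1 higher and 2 lower in NWS ewes. Their summed level had a higher median in follicular than in luteal ewes of every breed, with overlapping ranges. These medians were 5453 and 3441 CPM in Belclare, 2448 and 2137 in NWS, 4295 and 3011 in Suffolk, and 2853 and 1987 in Fur ewes. The summed level of ACTG2 and DES had medians of 6026 and 2372 CPM in NWS, 5068 and 2387 in Fur, and 475 and 566 in Suffolk ewes. The part of tissue makeup in the phase differences was not tested further.

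The type of cycle gave no calls by edgeR. Between synchronised and natural follicular ewes, 0 of 73 members were called in Belclare ewes by edgeR and by DESeq2, with 0 at an unadjusted p under 0.05. In NWS ewes 0 were called by edgeR and 3 by DESeq2, with 10 at an unadjusted p under 0.05. edgeR called 0% and 0.0135% of all genes in these comparisons, and the DESeq2 shares are not given here. Without the libraries that stood apart edgeR called 0 members in both, with 0% of all genes. The median log2FC of the members was -0.02 and -0.03.

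The remaining pairs of members set side by side across the 114 ewes, after subtracting group means, were subunits of one complex, members of one family or both proteins of lysosomes. The copper transporters SLC31A1 and SLC31A2 had a Pearson r of 0.349 and a Spearman rho of 0.397 (permutation p = 0.00045 and 0.00014, adjusted p = 0.00064 and 0.00023 over the 10 pairs), and r was 0.417 without the 2 ewes farthest from the median. SCNN1A and SCNN1B had an r of 0.329 and a rho of 0.325 (permutation p = 0.00042 and 0.00047, adjusted p = 0.00064 and 0.00067), with r 0.425 without those ewes. SCNN1A and SCNN1D had an r of 0.045 and a rho of 0.003 (permutation p = 0.65 and 0.96, adjusted p = 0.65 and 0.96), with r -0.060 without those ewes. The proton pump subunits ATP6V0A4 and ATP6V0D2 had an r of 0.488 and a rho of 0.449 (permutation p = 1e-05 for each, the smallest possible, adjusted p = 2e-05), and r was 0.375 without the 2 ewes. ATP6V0A4 and ATP6V1B1 had an r of 0.411 but a rho of 0.093 (permutation p = 0.0083 and 0.53, adjusted p = 0.01 and 0.59), and r was 0.079 without 2 ewes, so the relation rests on those ewes. CLCN7 and the proton pump accessory subunit ATP6AP1, both of lysosomes, had an r of 0.169 and a rho of 0.073 (permutation p = 0.13 and 0.47, adjusted p = 0.15 and 0.59), and r was 0.158 without the 2 ewes. All 10 pairs were computed over libraries of different depth.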

How the data were processed

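Messenger RNA of 115 mid-cervical libraries was sequenced by the authors (stranded poly-A kit, paired reads), trimmed, aligned with STAR 2.6.1b to the sheep build Oar_v3.1 and counted per Ensembl gene with featureCounts of Subread 1.6.3. The deposited values are raw counts per gene and ewe. Whether counting used strand is not given in the sources used here. The members and gene lists were chosen with earlier results of these data known, and their names were read from the supplementary lists of the study.

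Groups followed the labels. Only the 2 groups compared entered each fit in edgeR 4.0.16 (R 4.3.3, TMM, quasi-likelihood test, log2FC with SE from the F statistic, Benjamini-Hochberg over 14811 genes). DESeq2 1.42.0 (likelihood ratio test), no or another filter on low counts, DESeq2 size factors, no fold threshold, a replicate block and marker covariates were the alternatives. Leaving out the libraries that stood apart was added after seeing the data. Members given in full were the 2 per role list with the smallest of the larger p over both Fur against Suffolk tests, up to 3 per direction by p in the phase, cycle and NWS against Belclare synchronised follicular tests, those called higher in Fur or NWS than in Suffolk ewes, the smallest interaction p, the member failing the filter and those sharing a name. Other members named were picked after their values were seen, and some members and their values are not reported here. The fit was tested on simulated counts for the Fur against Suffolk natural follicular comparison, where 42.5%, 67.5% and 92.5% of 40 genes each, changed by 0.585, 1 and 2 on the log2 scale, were recovered at an adjusted p under 0.05. No pair of libraries within a group agreed within sampling noise (lowest chi-square per degree of freedom 15.4 over 490 pairs). Total counts per library ranged from 12238996 to 31261671, and p-values measure the spread between ewes.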

Additional observations from a re-analysis of the deposited data

Results flagged for a closer look

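In 25 identifiers described in full, the highest or lowest ewe of each group of at most 10 ewes was compared with the others by its gap to the nearest ewe over the range of the group. Of 275 groups, 35 had such a ewe far from the others, where chance gives about 1 in 20. Values are CPM, and the range of the other ewes is given for some.

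Belclare synchronised follicular replicate 2 was low in ATP6AP1 (137), SLC9A8 (26.5), ATP2A3 (205 where the others were at 435 to 643), CLCN3 (60.5 where the others were at 130 to 188) and CLCN4 (10.3). NWS natural follicular replicate 5 was high in ATP6AP1 (176) and low in SLC9A8 (10.6), CLCN3 (50.6), CLCN4 (6.08), SLC46A1 (2.11) and ATP2B4 ENSOARG00000002982 (1.13). Suffolk natural follicular replicate 4 was high in SLC46A1 (37.6) and KCNK5 (178) and low in SCNN1A (2.00). NWS synchronised follicular replicate 9 was low in ATP2A3 (92.9) and SCNN1A (6.72) and high in KCNK5 (76.0). These 4 libraries are among those that stood apart.

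Fur luteal replicate 8 was far from the others in 7 identifiers although it did not stand apart as a library. It was low in CLCN3 (46.2), ABCA2 (26.4), ABCA3 (24.6), SLC29A4 (0), KCNK5 (11.1) and KCNK6 (1.49), and high in ATP2B4 ENSOARG00000016118 (61.9). The same ewe had the lowest summed epithelial level (884) and the highest summed level of ACTG2 and DES (9400) of its group. Their part in these values was not tested.

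The remaining ewes were far from the others in 1 or 2 identifiers. NWS synchronised follicular replicate 7 was low in SLC35F6 (10), as was Suffolk luteal replicate 10 (6.23). Suffolk natural follicular replicate 5 was low in CACNG7 (0.545) and replicate 6 in KCNK6 (4.28). Belclare luteal replicate 7 was high in ABCA3 (194), and NWS synchronised follicular replicate 10 was low in SLC11A2 ENSOARG00000017470 (0.706). Belclare natural follicular replicate 4 was low in SLC29A4 (0.613), and replicate 1 was high in SCNN1D (34.8 where the others were at 0.237 to 3.60). Fur synchronised follicular replicate 1 was high in KCNK5 (45.1), and replicate 4 was low in SCNN1A (35.2). NWS natural follicular replicate 6 was high in SLC11A2 ENSOARG00000017456 (1041 where the others were at 29.4 to 97.3).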

How the results depend on the processing

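Counts of called members stayed within 1.5 times under DESeq2 size factors and under both other filters in all 17 comparisons. The DESeq2 likelihood ratio test gave 12 in NWS against Suffolk natural follicular ewes, 7 in luteal ones, 12 in Belclare against luteal Suffolk ewes and 3 in NWS ewes between cycles. Without a fold threshold 26 were called in luteal Fur and 6 in luteal NWS against Suffolk ewes. The shares of all genes called under these settings, and under the replicate block below, are not given here. The counts are therefore not a result about the members beside all genes. The interactions had no fold threshold to drop.

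Same-numbered ewes are different animals, and the correlations of their deviations ran from -0.522 to 0.587, so the numbers do not pair them. A replicate block gave 6 in Fur and 0 in NWS against Suffolk natural follicular ewes, 0 in Belclare against Suffolk and 14 in NWS against Belclare luteal ewes, and 4 between phases in Suffolk ewes. In luteal Fur against Suffolk ewes SLC11A2 ENSOARG00000017456 turned to 0.24 with the block.

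With the smooth muscle covariate the counts were 1 and 0 in Fur and NWS against Suffolk natural follicular ewes, 7 and 0 in luteal ones, 1, 0 and 0 in NWS against Belclare ewes, 1 between phases in NWS ewes and 1 in the Fur interaction. With the epithelial covariate they were 0, 0, 6 in luteal Fur and 0 in luteal Belclare against Suffolk ewes, 3, 0 and 0 in NWS against Belclare ewes and 6 between phases in Suffolk ewes. Log2FC of Fur over Suffolk changed sign with the muscle covariate in natural follicular ewes for SLC9A8 (0.00), CLCN4 (0.02), SLC29A4 (0.16), KCNK5 (0.60) and SLC11A2 ENSOARG00000017456 (0.61), and in luteal ewes for ATP6AP1 (0.02), CLCN3 (0.23), CLCN4 (0.34), SLC46A1 (0.01), SCNN1A (0.38), SCNN1D (-1.45), SLC11A2 ENSOARG00000017439 (0.64) and ENSOARG00000017456 (1.24), ATP11A (0.04) and SLC31A1 (0.29). With the epithelial covariate it did so in natural follicular ewes for SLC9A8 (0.05), ABCA3 (0.09), SLC16A5 (0.26) and KCNK6 (0.26), and in luteal ewes for CLCN3 (0.04), CLCN4 (0.10), SCNN1A (0.13), SCNN1D (-0.57) and SLC11A2 ENSOARG00000017456 (0.17). The cause was not tested.

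Without the libraries that stood apart, chosen after seeing the data, NWS against Suffolk natural follicular ewes gave 0, the r of SCNN1A with SCNN1D was -0.154, and that of ATP6V0A4 was -0.074 with ATP6V1B1 and 0.331 with ATP6V0D2. Without the 2 ewes farthest from the median these were -0.060, 0.079 and 0.375. Members near 1 CPM, such as SLC47A2, SCNN1D and CACNG6, rest on few reads per library.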
